A study of Caenorhabditis elegans with 2 samples.

Results

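LSY-2 occupancy is described here at 10 heterochronic timing genes of Caenorhabditis elegans, lin-14, lin-28, hbl-1, lin-41, lin-46, lin-29, lin-42, kin-20, nhl-2 and alg-1. They were taken by name, and all 10 were found among the 19973 protein-coding genes of the nuclear chromosomes in the WBcel235 annotation. Each gene was given a window that ran from 2 kb upstream of its 5′ end to its 3′ end. These windows held 25 of the 6850 peak summits that the authors' thresholded list gives. The other lists, 1 from both replicates together and 1 from each, had 30000 regions each and include background. The peaks came from chromatin immunoprecipitation and sequencing of LSY-2, a zinc finger transcription factor, in whole first-stage (L1) larvae that were starved after bleaching. All worms were of strain OP367, with the unc-119(tm4063) III mutation and the wgIs367 insertion that supplies eGFP-tagged LSY-2, and were of mixed sex. There were 2 biological replicates in 1 group and no untagged or fed group, so no condition could be compared. The promoter that drives the tagged protein is not given in the sources used here.

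Heterochronic genes set the order of stage-specific cell fates in the larva, best known from the seam cells of the epidermis. LIN-14 and LIN-28 keep early fates, and microRNAs of the lin-4 and let-7 families switch these and later factors off as development proceeds, until LIN-29 drives the change to the adult state. In a newly hatched larva without food the programme waits at the L1 stage. LIN-42 and KIN-20 are related to the Period protein and casein kinase of animal clocks, and ALG-1 and NHL-2 act in silencing by microRNAs. The larvae were used whole, so weak occupancy in most cells and strong occupancy in a few cannot be told apart.

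Windows reaching 50 bp to either side of 9 of the 25 summits are printed next because the results return to them. They include the summit of highest signal at nhl-2 and the adjoining pair at lin-46, which lie in regions shared with other genes. Those at kin-20 (+883 bp), lin-14 and lin-42 (+5331 bp) were the strongest of their genes, the one at alg-1 differed most between the replicates, and the last 2 hold GA repeats at low signal. Sequences are from the RefSeq WBcel235 assembly, written 5′ to 3′ on the strand of the gene with the summit in the middle. Capitals mark 3 words of 6 bases, read on either strand. The first word is GAGAGA, and on the other strand it reads TCTCTC. A second word is AGAGAG, and it reads CTCTCT there. The last word is AGAGAA, which the other strand gives as TTCTCT.
nhl-2 −840 bp, chrIII:4899875-4899975, minus strand: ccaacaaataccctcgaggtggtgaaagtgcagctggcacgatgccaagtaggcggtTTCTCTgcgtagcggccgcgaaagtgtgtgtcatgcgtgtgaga
lin-46 −855 bp, chrV:12967950-12968050, plus strand: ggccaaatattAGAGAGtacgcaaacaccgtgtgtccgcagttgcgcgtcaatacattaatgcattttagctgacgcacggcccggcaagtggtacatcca
lin-46 −633 bp, chrV:12968172-12968272, plus strand: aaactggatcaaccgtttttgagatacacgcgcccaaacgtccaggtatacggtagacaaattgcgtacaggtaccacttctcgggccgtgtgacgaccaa
kin-20 +883 bp, chrX:15276831-15276931, minus strand: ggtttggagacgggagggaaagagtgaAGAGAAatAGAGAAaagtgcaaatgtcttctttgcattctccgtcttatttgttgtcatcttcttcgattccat
lin-14 −161 bp, chrX:11465349-11465449, plus strand: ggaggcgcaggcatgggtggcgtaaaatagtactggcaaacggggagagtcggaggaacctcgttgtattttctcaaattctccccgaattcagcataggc
lin-42 +5331 bp, chrII:1246978-1247078, minus strand: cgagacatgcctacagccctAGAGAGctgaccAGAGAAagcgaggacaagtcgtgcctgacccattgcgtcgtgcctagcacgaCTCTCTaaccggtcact
alg-1 +1858 bp, chrX:13950918-13951018, plus strand: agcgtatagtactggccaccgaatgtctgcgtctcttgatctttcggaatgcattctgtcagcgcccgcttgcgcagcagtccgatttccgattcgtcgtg
lin-42 +14234 bp, chrII:1238075-1238175, minus strand: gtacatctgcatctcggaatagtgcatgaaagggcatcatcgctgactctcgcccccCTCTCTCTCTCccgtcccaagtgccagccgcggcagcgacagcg
kin-20 −1754 bp, chrX:15279468-15279568, minus strand: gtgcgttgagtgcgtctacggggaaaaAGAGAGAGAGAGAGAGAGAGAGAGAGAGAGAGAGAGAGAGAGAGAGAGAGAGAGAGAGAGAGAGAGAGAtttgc

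LSY-2 summits were found at 9 of the 10 heterochronic genes. A summit lay in the window of 9 members, where 30.4% of all protein-coding genes had one. Long windows hold a summit more often, and 4 of the members had a window of at least 10 kb. Among windows of under 5 kb, the only member, lin-46, had a summit, where 24.1% of all genes did. Among windows of 5 to 10 kb, 5 of 5 members had one, where 39.9% of all genes did. Of the 2 members with windows of 10 to 20 kb, kin-20 had a summit and lin-29 had none, where 53.9% of all genes had one. Both members with windows of 20 kb and over, lin-14 and lin-42, had one, where 66.9% of all genes did. The members' windows held 2.13 summits per 10 kb, and the windows of all protein-coding genes, merged where they overlap, held 0.697. Without lin-14, which had 9 of the 25 summits, the value for the members was 1.69 per 10 kb. No test was made, since the members were named with earlier results of these data known.

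**Figure D1:**
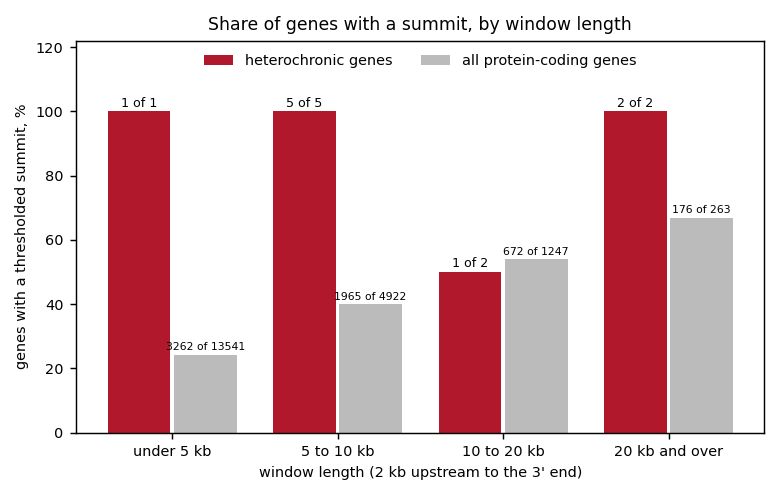
Percentage of genes with at least 1 thresholded LSY-2 summit in the window from 2 kb upstream to the 3′ end, by length of that window, with the 10 heterochronic genes in red and all protein-coding genes in grey. The numbers above the bars are genes with a summit of all genes in the class, and the red bars rest on 1, 5, 2 and 2 genes.

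Fewer members had a summit close to their own 5′ end. In the promoter window, which runs 1000 bp up and 200 bp down from the gene 5′ end, 5 of 10 members had a summit (lin-14, lin-28, hbl-1, lin-46 and nhl-2), where 21.1% of all protein-coding genes had one. When the same window was put around every annotated transcript 5′ end, kin-20 and alg-1 joined them, giving 7 of 10 where 22.8% of all genes had a summit. kin-20 and alg-1 have 5 and 4 such ends, and the share of all genes was not matched for that number. When each summit was given only to the protein-coding gene with the nearest 5′ end, 3 members were left, lin-14, lin-28 and hbl-1, where 16.0% of all genes had one. With a window of 500 bp upstream and 100 bp downstream, lin-14 alone remained, where 16.6% of all genes had a summit. With one of 2000 bp upstream and 500 bp downstream, 7 members had a summit, lin-41 and kin-20 in addition to the first 5, where 27.1% of all genes had one. Of the 7 summits in the members' promoter windows, that of lin-14 at −161 bp was the nearest to its gene, and the other 6 lay between −942 and −559 bp.

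**Figure D2:**
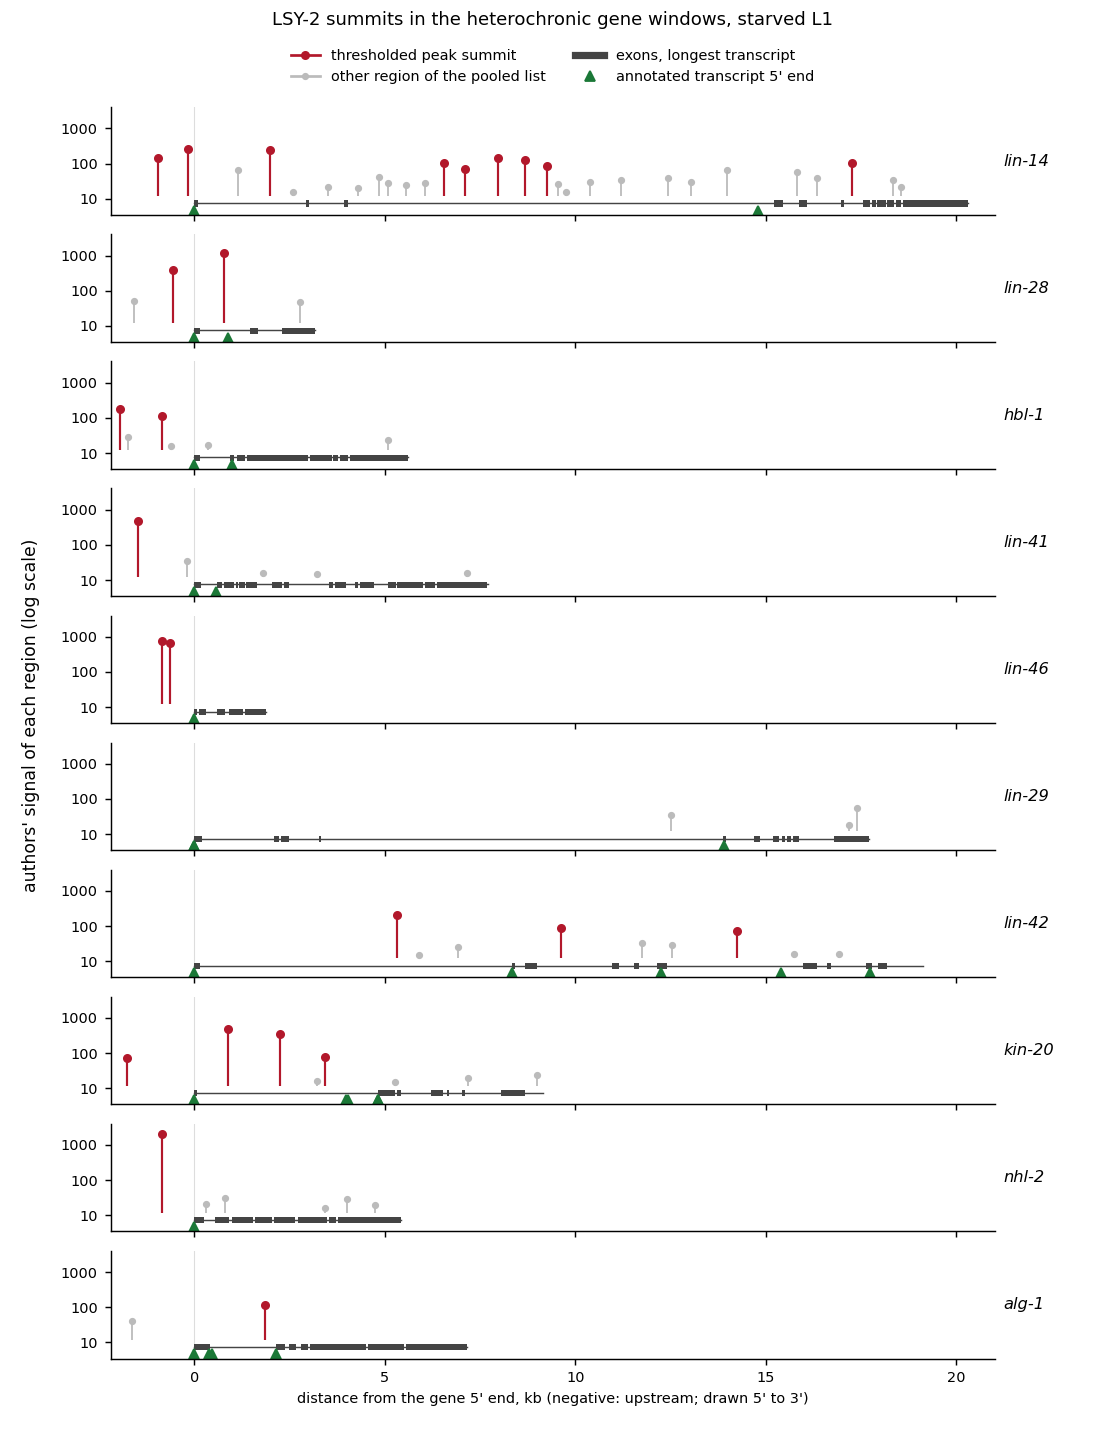
LSY-2 summits along the 10 genes, each drawn 5′ to 3′, with distance from the gene 5′ end in kb on the x axis and the authors' signal on a log scale on the y axis. Red marks thresholded summits, grey the other regions of the pooled list, dark boxes the exons of the longest transcript and green triangles annotated transcript 5′ ends. lin-14 carries 9 red summits, lin-29 carries none, and those of lin-42 and 3 of the 4 of kin-20 lie inside the gene.

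The signal is the authors' own value for each peak, with no stated scale, and is used here to rank peaks within a list. The median signal of the 25 member summits was 142, and their quartiles were 101.2 and 397. That of the other 6825 summits was 170 (quartiles 101.1 and 343). The member value moved with lin-14, since without its 9 summits the median of the remaining 16 was 279, above that of the others. Those 16 were themselves mixed, with a median of 119.5 for the 7 on X and 468 for the 9 on autosomes. Only nhl-2 and lin-28 had a summit with a signal of at least 1000, or 2 of 10 genes, where 3.46% of all protein-coding genes had one. Counted by summit, these were 2 of 25, or 8.0%, against 5.71% of the other summits. Each member's strongest summit, from high to low, had a signal of 1995 at nhl-2, 1150 at lin-28, 738 at lin-46, 480 at kin-20, 468 at lin-41, 259 at lin-14, 210 at lin-42, 172 at hbl-1 and 120 at alg-1. The ratio of the replicates at one peak had an SD of 1.43-fold over the list. Of the neighbours in this order, kin-20 and lin-41, lin-14 and lin-42, and lin-42 and hbl-1 were closer to each other than that. hbl-1 and alg-1 were about that far apart, and the other neighbours were farther apart. This SD is not the error of a ratio between 2 peaks, so it does not settle which orders hold. In replicate 1 the strongest region had 165.1 at kin-20 and 222.5 at lin-41, and 87.1 at lin-42 and 94.2 at hbl-1. Those 2 orders were thus turned there, while lin-14 was above lin-42 in both replicates. lin-46 was above kin-20 in both, but in replicate 2 only with 389.5 against 316.8.

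**Figure D3:**
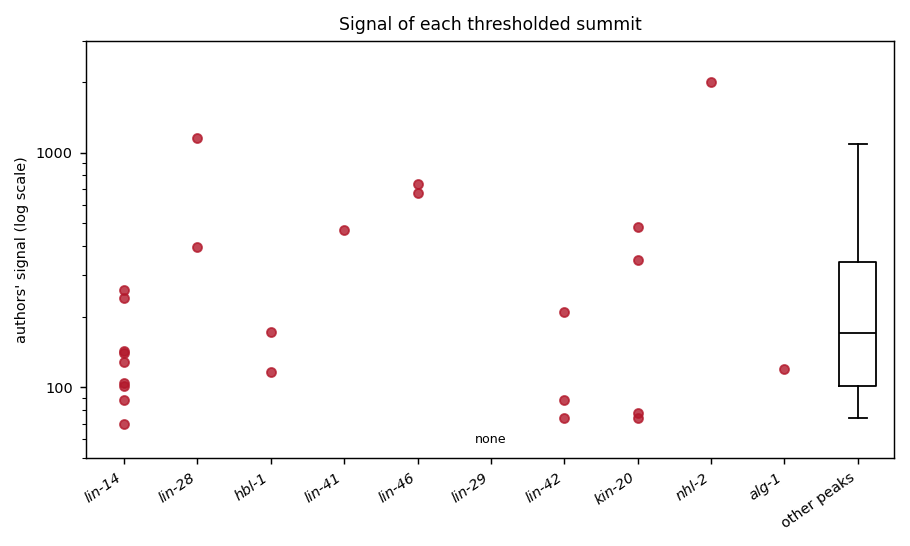
Authors' signal, on a log scale, of each of the 25 thresholded summits by gene (red points) and of the other 6825 thresholded summits (box, quartiles and median; whiskers, 5th and 95th percentiles). The single summit of nhl-2 has a signal of 1995, while the 9 summits of lin-14 lie between 69.9 and 259.

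lin-14 encodes a nuclear DNA-binding protein of the L1 stage and is the classical target of the lin-4 microRNA. The gene lies on chromosome X from 11465560 to 11485871 on the plus strand, with annotated transcript 5′ ends at 0 and +14801 bp. Its 9 summits were at −942, −161, +1981, +6557, +7107, +7968, +8671, +9244 and +17270 bp from the gene 5′ end. Their signals, in that order, were 140, 259, 241, 101.2, 69.9, 142, 129, 88.0 and 104. They fall into a pair upstream, 1 in the first intron, a group of 5 in the third intron and 1 in the sixth intron, at +2469 bp from the second of these transcript 5′ ends. The third intron is 11174 bp long, and all 5 of its summits were in the 5′ part of it and more than 5 kb before the second transcript 5′ end. Of the 263 protein-coding genes with windows of 20 kb and over, 7, or 2.66%, held at least 9 summits. The strongest 2 of the 19 other pooled regions at lin-14 came just under the threshold. They lay at +1145 and +13982 bp with signals of 64.3 and 65.6, where the lowest signal in the thresholded list was 68.8.

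The replicates did not rank the lin-14 summits alike. The pair of summits with the highest signal had 123 in replicate 1 and 145 in replicate 2 at −161 bp, and 126 and 119 at +1981 bp. In the third intron, replicate 2 had the higher values, with 28.8 in replicate 1 and 54.2 in replicate 2 at +7107 bp, 36.9 and 96.2 at +8671 bp, and 16.3 and 64.6 at +9244 bp. At +17270 bp the order was turned, with 66.7 in replicate 1 and 46.0 in replicate 2. These 4 were among the 7 member summits whose ratio was more than 1 SD from the median ratio of the list. At +6557 and +7968 bp in the same intron the replicates were close, with 52.9 and 54.3 at the first and 66.6 and 72.5 at the second. Near the second, replicate 2 also had a region of 88.8 at +7795 bp, too far off to be matched within 100 bp.

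hbl-1 encodes a zinc finger factor related to Drosophila Hunchback that keeps second-stage fates. It lies on chromosome X from 5822142 to 5827755 on the plus strand and had 2 summits, both upstream. The one at −1957 bp had a signal of 172, with 94.2 in replicate 1 and 84.1 in replicate 2. The one at −856 bp had a signal of 116, with 51.2 in replicate 1 and 67.0 in replicate 2. The first lay 43 bp inside the upstream limit of the window, and no thresholded summit lay within the gene or near its second transcript 5′ end at +990 bp.

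lin-28 encodes an RNA-binding protein that blocks the maturation of let-7 and keeps second-stage fates. It lies on the minus strand of chromosome I from 8407630 to 8410804 and has transcript 5′ ends at 0 and +884 bp. Its stronger summit, in the first intron at +772 bp, lay at −112 bp from the second of these ends and not at the first. The peak, from 8409761 to 8410224, had a signal of 1150, which put 4.66% of the list above it. Replicate 1 gave 556 and replicate 2 gave 608. The second summit, at −559 bp from the gene 5′ end, had a signal of 397, with 205 in replicate 1 and 196 in replicate 2. The replicates thus agreed on the order of the 2 summits, and the stronger one was the only member summit within 150 bp of an internal transcript 5′ end.

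lin-41 encodes an RNA-binding protein of the TRIM-NHL family, a target of let-7 that holds back LIN-29. It lies on the minus strand of chromosome I from 9334800 to 9342496. Its only thresholded summit was at −1466 bp, outside the promoter window, with a signal of 468. Replicate 1 had 223 and replicate 2 had 255 there. Nearer the gene, the pooled list held a region at −180 bp with a signal of 34.9, under the threshold.

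lin-46 encodes a protein related to gephyrin that acts downstream of lin-28. The gene, on chromosome V from 12968855 to 12970730 on the plus strand, had a pair of upstream summits whose peak intervals overlap, at −855 and −633 bp. The first had a signal of 738, with 339 in replicate 1 and 390 in replicate 2. The second had 673, with 316 in replicate 1 and 346 in replicate 2. Both summits lay nearer to the 5′ end of R186.8, a gene on the opposite strand, at −18 and −240 bp from it, so the lists do not assign them to one gene or the other. Of the 13541 genes with windows of under 5 kb, 3.78% had at least 2 summits. lin-46 was also the member with the most summits per length, 5.16 per 10 kb of window, and its pooled list held no region under the threshold.

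lin-29 encodes the zinc finger factor that starts adult fates, and it was the member without a thresholded summit. It lies on the minus strand of chromosome II from 11917642 to 11935343. The pooled list, which includes background, held 3 regions in its window, at +12510, +17174 and +17391 bp, with signals of 34.6, 18.5 and 54.2. The strongest, at +17391 bp, had 25.9 in replicate 1 and 27.3 in replicate 2, and it lay toward the 3′ end of the gene. No region of the pooled list lay upstream of lin-29 or within 12 kb after its 5′ end. A pooled region lay in the window of all 10 members, where 49.9% of all protein-coding genes had one.

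lin-42 encodes a protein related to Period, and it is used in several isoforms with 5 annotated transcript 5′ ends. It lies on the minus strand of chromosome II from 1233236 to 1252359. All 3 summits were in introns, and none lay within 1 kb upstream of any of its transcript 5′ ends. The strongest, at +5331 bp in the first intron of 8173 bp, had a signal of 210, with 87.1 in replicate 1 and 118 in replicate 2. The others had a signal of 88.3 at +9620 bp and 74.2 at +14234 bp. At +9620 bp replicate 1 had 46.6 and replicate 2 had 45.2, and at +14234 bp they had 29.7 and 44.7. The last was at −1156 bp from the 5′ end of a short isoform. Of the 263 genes with windows of 20 kb and over, 20.9% had at least 3 summits.

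kin-20 encodes a casein kinase related to Drosophila Doubletime, and it has 5 annotated transcript 5′ ends. It lies on the minus strand of chromosome X from 15268602 to 15277764, and 3 of its 4 summits lay in the first intron of the longest transcript, which is 4747 bp long. The summit at +883 bp had a signal of 480, with 165 in replicate 1 and 317 in replicate 2, a difference larger than 1 SD of the list. That at +2260 bp had 348, with 163 in replicate 1 and 184 in replicate 2. That at +3424 bp had 77.8, with 50.6 in replicate 1 and 38.6 in replicate 2, and lay at −551 bp from the second transcript 5′ end, at +3975 bp. The summit upstream, at −1754 bp, had a signal of 73.6, with 38.2 in replicate 1 and 35.1 in replicate 2. Of the 1247 genes with windows of 10 to 20 kb, 5.05% had at least 4 summits. Among the 6850 strongest regions of each replicate, kin-20 held 4 in replicate 1 and 2 in replicate 2.

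nhl-2, a TRIM-NHL gene whose product helps the microRNA silencing complex, had the strongest of the 25 summits. The gene lies on the minus strand of chromosome III from 4893658 to 4899085. The peak, from 4899699 to 4900141, had a signal of 1995, and 2.99% of the list was stronger. Replicate 1 gave 834, rank 222 of that list, and replicate 2 gave 1161, rank 191. The summit was at −840 bp from nhl-2 and at −583 bp from tag-340, a gene on the opposite strand, so that it lay between a divergent pair and nearer to the other gene. Within nhl-2 the pooled list held 5 regions, none above 31.2.

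alg-1 encodes an Argonaute protein that carries microRNAs. It lies on chromosome X from 13949110 to 13956261 on the plus strand, with 4 transcript 5′ ends. Its single summit, at +1858 bp, had a signal of 120 and lay at −294 bp from the last of these ends, at +2152 bp. The annotation puts the summit in a 5′ UTR of one transcript and in the first intron of the longest. Replicate 2 had 74.8 at that summit. In replicate 1 the nearest region within 100 bp had 13.6, but a region with 50.3 lay at +1706 bp. The ratio of 2.46 on the log2 scale, the largest of the 25, therefore rests on which replicate 1 region is taken.

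The member summits on which the replicates differed most were all on X. Of the 25, 21 had their match among the 6850 strongest regions of replicate 1 and 23 among those of replicate 2, or 84.0% and 92.0%. For the other thresholded summits the shares were 89.1% and 91%. The alg-1 summit is not among the 21, since its match had 13.6, though its region of 50.3 at +1706 bp ranked 4953. On the log2 scale, replicate 2 over replicate 1 had a median ratio of 0.20 at the member summits, with an SD of 0.69 (n = 25 summits). Over all 6616 thresholded peaks with a region in both replicate lists the median was 0.20 and the SD 0.52, or 1.43-fold. Of the members' ratios 28.0% were more than 1 SD from the median, against 25.9% of the others. On X these 7 made up 43.8% of 16 member summits, against 26.8% of the other summits on X, and the SD was 0.85 against 0.52. The 7 include alg-1, whose ratio rests on which replicate 1 region is taken. The 28.0%, the 43.8% and the member SDs of 0.69 and 0.85 therefore rest on it too. The 9 autosomal member summits had an SD of 0.23, against 0.52 for the other autosomal summits. The median signal was 124 at the X member summits and 468 at the autosomal ones, and the part of signal in the agreement was not tested. The strong summits of nhl-2, lin-28, lin-46 and lin-41 all lay within 1 SD, and 6 of the 7 outside it had a signal of 129 or less.

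**Figure D4:**
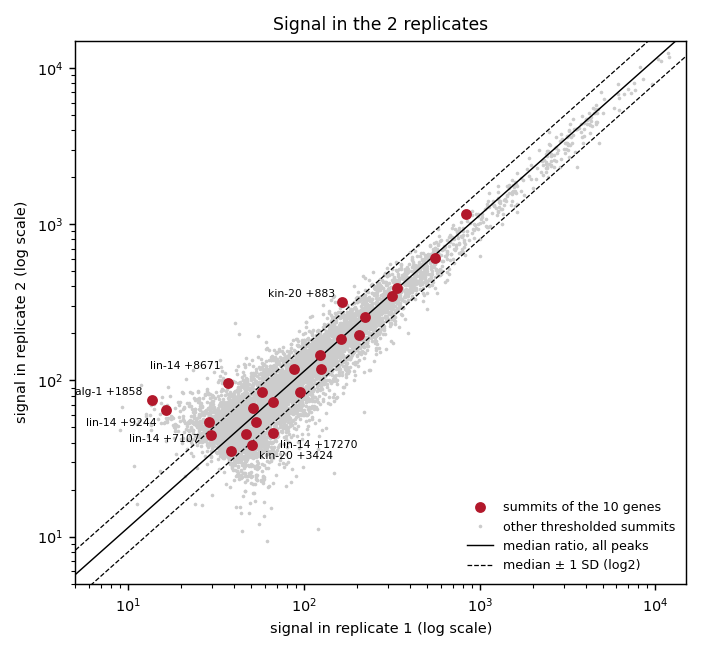
Signal of thresholded summits in replicate 1 (x axis) and replicate 2 (y axis), both on log scales, for the 25 summits of the heterochronic genes (red) and the other summits (grey). The solid line is the median ratio over all peaks and the dashed lines are 1 SD either side on the log2 scale, and the 7 named summits lie outside them.

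The members' summits lay inside genes more often than those of other genes, to an extent that moved with gene length. Upstream of the gene were 10 of the 25, or 40%, against 65.1% of 5665 other summits in windows of protein-coding genes. Introns held 14, or 56.0%, against 27.9%, and 1 was in a 5′ UTR. None lay in coding sequence, where 1.96% of the others lay. In windows of 10 kb and over, 13 of 16 member summits were intronic, or 81.2%, against 63.6% of other summits. Of those 16, lin-14 alone held 9. In shorter windows 7 of 9 were upstream, or 77.8%, against 76.1%, and 1 was intronic, or 11.1%, against 16.0%. Only 5 of the 25 lay within 500 bp of any protein-coding transcript 5′ end, against 48.1% of the others.

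Many of these summits lay beside genes annotated as noncoding RNA (ncRNA). The 5′ end of such a gene was within 200 bp of 10 of the 25 summits, or 40%, against 11.9% of the other summits. Of these 10 summits, 8 were on X, or 50% of 16 member summits against 18.6% of 1012 others. On the autosomes there were 2 of 9, or 22.2% against 10.7% of 5813, which is a difference of about 1 summit. At kin-20, the summits at −1754, +883, +2260 and +3424 bp were at +30, +182, +14 and +128 bp from the 5′ ends of C02D4.15, F46F2.9, F46F2.12 and F46F2.10. At lin-14, those at −942, −161 and +1981 bp were at −45, −94 and −11 bp from T25C12.10, T25C12.8 and T25C12.7, and the nhl-2 summit was at +25 bp from F26F4.14. Such genes are short and numerous in this annotation, the summits of one member share a locus, and the peak lists do not tell to which gene a summit belongs.

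Of the 10 members, 4 lie on X, and these held 16 of the 25 summits. All 4 had a summit in the window, where 25.8% of protein-coding genes on X had one, and 2 had one in the promoter window, where 15.9% did. Of the 6 members on autosomes, 5 had a summit in the window, where 31.2% of autosomal genes did, and 3 in the promoter window, where 21.9% did. Neither window share was matched by window length. All 4 X members had windows of over 5 kb, where 39.9% to 66.9% of all protein-coding genes had a summit, depending on length. The windows of the X members held 3.19 summits per 10 kb, and 2.51 without lin-14, against 0.576 for all genes on X. Those of the autosomal members held 1.34, against 0.72 for all autosomal genes. The median signal of the 16 member summits on X was 124, against 145 for other summits on X, and without the 9 of lin-14 it was 120. That of the 9 on autosomes was 468, against 175 for other autosomal summits.

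The letters at these summits were compared with those at all other summits. The 3 words of 6 bases whose share of summit windows most exceeded that of flanks 300 bp away were chosen on the 6825 summits outside the member windows. They are the 3 words in capitals in the printed windows, each counted on both strands, and they overlap one another. GAGAGA was in 6 of 25 member windows, or 24.0%, against 28.1% of other summit windows, and in 6.0% of the members' flanks against 6.12% of other flanks. AGAGAG was in 32.0% of member windows against 24.0%, and in 6.0% of flanks against 4.97%. AGAGAA was in 36.0% against 27.1%, and in 6.0% of flanks against 10.4%. At least 1 of the 3 words was in 14 of 25 windows, or 56.0%, against 42.9% of the others. With 25 windows, a difference of 1 window moves a share by 4.0 percentage points.

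The words were not held by the strongest summits alone, nor by all of them. The window of lin-28 at +772 bp held 7 matches and that of nhl-2 held 1, while the window of lin-46 at −633 bp, with a signal of 673, held none. Those of hbl-1 and alg-1 held none either. The most matches, 64, were in the unbroken GA repeat of the kin-20 summit at −1754 bp, whose signal of 73.6 was near the lowest in the list. The lin-42 summit at +14234 bp, with a signal of 74.2, held 6. Member windows had a median GC content of 50.5%, against 43.6% in other summit windows. Their flanks had 37.6%, against 34.7% in other flanks.

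Most other listed genes of the pathway also had summits. Of 22 further genes of heterochronic timing and microRNA processing, 19, or 86.4%, had a summit in the window and 13, or 59.1%, in the promoter window, where 30.4% and 21.1% of all genes did. Only pup-2 and hrpk-1 had windows of under 5 kb, and the list was not compared by window length. For all genes the window share was 39.9% at 5 to 10 kb, 53.9% at 10 to 20 kb and 66.9% from 20 kb up. xrn-2, which encodes an exonuclease that degrades microRNAs, had the highest signal, 6258 at −1212 bp, but this summit was nearest to Y48B6A.1. Among genes of the microRNA machinery, pash-1, which encodes the partner of Drosha, had 970 at −93 bp and ain-1, a gene of the GW182 family, had 919 at −965 bp. dcr-1, the Dicer gene, had 138 at −89 bp, alg-2, the second Argonaute gene, had 198 at +389 bp, and ain-2 had 118 at +765 bp. drsh-1, the Drosha gene, had none.

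Among regulators of timing, puf-9, a Pumilio family gene, had a signal of 1585 at −284 bp and hrpk-1, which encodes an RNA-binding protein, had 758 at +185 bp. lin-66 had 569 at −362 bp and lep-2 had 208 at −52 bp. The genes for the nuclear receptor DAF-12 and its corepressor DIN-1 had 2 and 7 summits, the strongest with 303 at +1752 bp and 528 at −729 bp. sea-2 had 6 summits, the strongest with 331 at +8523 bp, in a window of 23764 bp. myrf-1, whose product activates lin-4, had 344 at −306 bp, and myrf-2 had 421 at +5662 bp, nearest to arrd-28. The strongest summits of the nuclear receptor genes nhr-23 and nhr-25 had 216 at −816 bp and 148 at +1364 bp. blmp-1 had 182 at −1534 bp. dre-1 had 160 at +8062 bp, where hpo-26 was the nearest gene. mab-10, whose product works with LIN-29, and pup-2 had no summit.

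Summits near the microRNA genes were counted in the same way. Of lin-4, let-7, mir-48, mir-84 and mir-241, let-7 alone had a thresholded summit within 2 kb upstream, at −1856 bp, with a signal of 684, 355 in replicate 1 and 333 in replicate 2. That summit was nearest to the 5′ end of C05G5.2. The noncoding RNA gene lep-5 had none. The 1 of 6 genes, or 16.7%, compares with 24.1% of protein-coding genes with windows of under 5 kb, the class of all 6. The window of lsy-2, the gene of the targeted factor, held no region of any of the 4 lists, so it gave no check of the labels.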

How the data were processed

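LSY-2 ChIP-seq peak lists of 2 biological replicates were used in the ce11 build, which is WBcel235, with DNA fragments of 150 to 350 bp per the labels. Per the deposited README texts, each replicate list and the pooled list hold peaks and background, made from alignments with a control. The thresholded list is the optimal set of an irreproducible discovery rate analysis of those lists. The sources used here do not name the aligner, the caller or their versions. Without a known read depth, no counting error can be stated. The authors' signal per region was used as deposited, and its scale is not stated. The authors' −log10 q is the same, 4.19, for every thresholded peak and ranks none. A summit is the deposited offset added to the region's start. Genes came from Ensembl release 115, and microRNA symbols from RefSeq. Replicate regions were matched to the nearest summit within 100 bp. Windows were counted with Python 3.11.15, numpy 2.4.6 and pandas 2.3.3. The window and distance code and a word ranking of the same kind were checked on made-up data, and the other steps were not. Words were counted 50 bp to either side of a summit. The members and gene lists were chosen with earlier results of these data known, so counts are descriptions without tests. Named genes are the members, the further pathway genes, genes whose 5′ end is nearer to a summit, and lsy-2. Other windows, lists and match distances were tried. The ce10 lists were not used here.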

Additional observations from a re-analysis of the deposited data

How the results depend on the processing

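The number of members with a summit in the window was 9 in the thresholded list and in the 6850 strongest regions of either replicate alone (9 to 9), which held the same 9 genes. The thresholded list was itself made from these lists, so part of this likeness is built in. Each replicate alone also gave 5 members with a promoter summit (5 to 5), 25 summits (25 to 25) and 2.13 per 10 kb (2.13 to 2.13). These equal totals hold different regions, since by nearest match 19 of the thresholded summits were in both. Replicate 1 had 9 at lin-14, 3 at lin-28, 2 at lin-42 and 4 at kin-20, against 11, 2, 3 and 2 in replicate 2. The choice of window changed more. Over the gene span alone, 5 members and 15 summits were left. With the promoter window of 500 bp upstream to 100 bp downstream 1 member was left, with the nearest 5′ end only, 3, and with 2000 bp upstream and 500 bp downstream there were 7. Among the 3425 strongest thresholded peaks there were 12 summits and 1.02 per 10 kb, with fewer peaks by construction, and still 8 members. Without lin-14, an alternative chosen after seeing the data, there were 16 summits, with a median signal of 279. With windows of 100 bp to either side of the summit the word GAGAGA was in 48.0% of member windows against 42.0% of others, above them and not below, and AGAGAG was in 60% against 36.1%. Each member's strongest signal in the replicate lists was also taken relative to the median of that list's 6850 strongest regions. Of these 20 values, 18 moved by less than the replicate SD, and the other 2 were those of lin-29. No paired analysis was possible because there is 1 group. Depth is unknown, so a missing region does not show a lack of binding.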
